A study of Mus musculus with 12 samples.

Results

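The 6 genes *Pou5f1*, *Sox2*, *Nanog*, *Sall4*, *Utf1* and *Lin28a*, which encode core pluripotency factors, were followed in mouse embryonic stem cells (mESCs) in which the zinc finger transcription factor gene *Prdm10* can be deleted. They were picked by name by a rule that uses no measured value, though with earlier results of these data known, and all 6 were found by gene symbol among the 54146 genes of the deposited tables. The 12 RNA-seq libraries came from C57BL/6 cells with both *Prdm10* alleles floxed and a *Rosa26*-CreERT2 allele, a genotype that all 4 groups shared, so that Cre was driven from the broadly active *Rosa26* locus and became active on exposure to tamoxifen. The cells were grown with serum and leukemia inhibitory factor on gelatin, without a feeder layer, and received either 50 nM 4-hydroxytamoxifen (OHT) or the ethanol vehicle (EtOH) for 24 h. RNA was taken at Day 2 and at Day 4 after induction, with 3 libraries in each group of day and treatment. The study's methods describe its experiments in general as independent biological repeats, but no label says whether the 3 libraries of a group were separate cultures or cell lines, so the p-values measure the spread between these libraries, which may in part be technical.

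Pluripotency, the capacity of a cell to form every embryonic lineage, rests on a small circuit of transcription factors that activate their own and each other's genes. OCT4 (encoded by *Pou5f1*) and SOX2 bind DNA side by side at paired POU and SOX sites, and NANOG, a homeobox protein, joins them at many of the same enhancers. SALL4 is a zinc finger protein that works with the NuRD co-repressor complex, UTF1 is a chromatin-associated factor of undifferentiated cells whose gene is a known target of OCT4 and SOX2, and LIN28A is an RNA-binding protein that blocks maturation of the let-7 microRNAs. All 6 are textbook marks of undifferentiated mESCs, and the comparison of OHT with EtOH asks whether their transcripts change after the treatment that deletes *Prdm10*. No group received OHT without the floxed alleles. Effects of OHT itself, of active Cre and of the loss of *Prdm10* therefore cannot be told apart here.

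All 6 transcripts stayed abundant in all 12 libraries, and their differences between treatments were small and differed from gene to gene. *Sox2* fell by 18.2% after OHT at Day 2 but rose by 12.1% at Day 4, *Nanog* rose by 13.3% at Day 4, and *Utf1* fell by 11.8% at Day 2 and fell by 13.4% at Day 4. *Pou5f1* and *Lin28a* fell by less than that at Day 2 and were not called at Day 4, and *Sall4* rose by 11.3% at Day 2 and fell by 5.98% at Day 4, the last at the threshold itself. In fitted values the passage from Day 2 to Day 4 moved *Sall4* and *Lin28a* more than OHT did on either day. A gene was called changed at a Benjamini-Hochberg adjusted p below 0.05 in the DESeq2 Wald test with a mean normalised count above 100, and below "rose" and "fell" are used for called genes only.

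At Day 2, 4 of the 6 members were lower after OHT and 1 was higher, where 10.8% of 11642 tested genes were called lower, 9.26% were called higher and 20.1% were called in either direction. Scaling by total counts in place of median-of-ratios factors moved the share of called genes that were higher from 46.0% to 68.5% at that day, and left 1 member called lower and 1 higher. Without Day 2 EtOH library 1, only *Sox2* of the members was called, as lower. At Day 4, 2 were lower and 2 higher, against 21.7% of 11552 tested genes called lower, 23.5% called higher and 45.1% in either direction. In the sizes of their changes the members lay within the range of all genes: the median size of a log2 fold change was 0.10 over all tested genes at Day 2 and 0.15 at Day 4. The Day 2 change of *Sox2* was larger than that of 90.1% of tested genes, that of *Nanog* than that of 1.47%, and at Day 4 the 6 members fell between 4.07% (*Lin28a*) and 63.6% (*Utf1*).

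**Figure D1:**
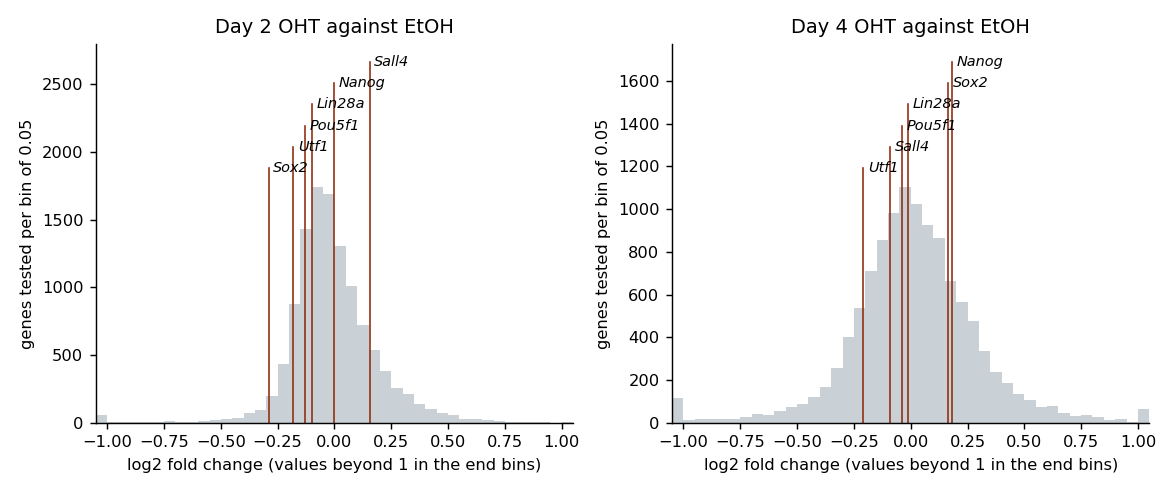
Distribution of log2 fold changes (OHT over EtOH, x axis) over all tested genes, as genes per bin of 0.05 (y axis), with vertical lines at the values of the 6 members; line heights carry no value. At Day 2 *Sox2* (-0.29) lies in the lower tail and *Sall4* (0.15) to the right, and at Day 4 *Utf1* (-0.21) lies lowest and *Nanog* (0.18) highest of the 6.

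Total depth was 35017667 to 41409992 expected counts per library, and the members' normalised read counts ran from 2397 to 24517. *Prdm10* itself had 801 ± 29.4 normalised counts (SD, n = 3) in EtOH and 2173 ± 80.3 in OHT at Day 2, and 869 ± 45.8 and 2012 ± 67.5 at Day 4. A count over the whole gene includes exons outside the floxed one, so it does not check the deletion, and the groups are named here by their labels. Defining embryonic stem cell transcripts were high in every library, with *Dppa5a* at 1127 to 1479 TPM, a unit corrected for transcript length and library depth, and *Tdgf1* at 310 to 442 TPM. Embryonic fibroblast markers summed to 1.16 to 3.44 TPM over 10 genes, led by *Thy1*, and *Dcn*, *Lum* and *Twist2* had at most 3 counts in every library. The 15 markers of differentiated lineages summed to 16.2 to 20.7 TPM, led by *Krt18*, with *Foxa2* at 3 counts or fewer in each Day 2 OHT library. The Day 2 sums did not overlap, at 18.8 to 19.5 TPM in EtOH and 20.1 to 20.7 in OHT. At Day 4 they overlapped, at 16.2 to 18.2 and 17.0 to 17.9 TPM. TPM and normalised counts differed in scale at Day 2: *Nanog* had means of 153 and 162 TPM in EtOH and OHT, but 14949 and 14914 normalised counts. Of 4 lineage markers tested, none rose at Day 2. *Nes* fell on both days (log2 -0.20 and -0.29), and *Eomes* rose at Day 4 (log2 0.47, adjusted p = 0.0269). That is 25% called at Day 2 and 50% at Day 4, beside 20.1% and 45.1% of all tested genes. In bulk RNA, fewer cells that express a gene and less of its RNA per cell cannot be told apart.

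The starts of these genes were searched for the DNA motifs that members of the circuit bind. Of the 6 members, 5 had an entry in the RefSeq promoter table (GRCm38.p6; *Sall4* had none), with 7 windows that run from 250 bases before to 50 bases after a transcription start. Each window was searched on both strands for a POU motif (TTTGCAT), a SOX motif (ACAATG), the paired site in which the SOX motif follows the POU motif after 1 free base, and a GC box (GGGCGG), a common site of SP family factors. Shown 5' to 3' are the 250 bases before the first listed start of *Nanog* and *Sox2*, the members whose OHT effect turned between the days or appeared at Day 4, of *Utf1*, lower on both days, and of *Pou5f1*, the most abundant, with bases of a match in capitals.

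Nanog, chr6:122707239-122707488, plus strand: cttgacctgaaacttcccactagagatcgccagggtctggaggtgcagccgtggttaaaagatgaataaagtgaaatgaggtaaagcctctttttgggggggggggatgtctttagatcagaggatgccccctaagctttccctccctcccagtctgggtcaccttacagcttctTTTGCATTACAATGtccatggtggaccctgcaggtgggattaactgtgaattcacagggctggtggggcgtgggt
Sox2, chr3:34649745-34649994, plus strand: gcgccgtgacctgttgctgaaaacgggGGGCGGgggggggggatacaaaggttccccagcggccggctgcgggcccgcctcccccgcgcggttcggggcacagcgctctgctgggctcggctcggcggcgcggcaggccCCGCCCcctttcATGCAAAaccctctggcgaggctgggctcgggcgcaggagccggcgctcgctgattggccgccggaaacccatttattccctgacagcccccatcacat
Utf1, chr7:139943606-139943855, plus strand: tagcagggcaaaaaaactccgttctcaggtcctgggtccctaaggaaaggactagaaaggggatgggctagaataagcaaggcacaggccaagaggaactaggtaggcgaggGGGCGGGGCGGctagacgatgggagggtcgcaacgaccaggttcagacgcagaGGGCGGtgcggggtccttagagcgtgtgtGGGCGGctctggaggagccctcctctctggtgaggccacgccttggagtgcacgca
Pou5f1, chr17:35505782-35506031, plus strand: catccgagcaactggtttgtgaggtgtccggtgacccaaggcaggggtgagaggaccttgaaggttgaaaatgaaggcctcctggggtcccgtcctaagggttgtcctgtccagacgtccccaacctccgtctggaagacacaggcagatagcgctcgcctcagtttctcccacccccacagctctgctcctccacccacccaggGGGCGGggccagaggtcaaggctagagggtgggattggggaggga

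The paired POU and SOX site stood in 2 of 32851 windows of the table (0.00609%), and both were the overlapping windows of *Nanog*, where the site begins 75 bases before the first start. *Sox2* held a POU motif on the minus strand, 99 bases before its start, and 2 GC boxes. A POU motif was present in 4.63% of all windows and a SOX motif in 12.6%. *Utf1* held 4 GC boxes, the first pair sharing a base, and *Pou5f1* 1 GC box 45 bases before its start; 35.7% of all windows held a GC box. The single *Lin28a* window held a SOX motif on the minus strand, 96 bases before the start, and the second *Pou5f1* window a SOX motif 158 bases before its own. These are matches of letters in a short window and say nothing of binding in these cells.

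Compared per unit of length, the transcripts kept nearly the same order in the 4 groups. *Pou5f1* was the highest, with a mean of 386 ± 2.56 TPM (SD, n = 3) in Day 2 EtOH, 374 ± 20.9 in Day 2 OHT, 460 ± 20.4 in Day 4 EtOH and 439 ± 7.13 in Day 4 OHT, and ranked between 257 and 295 among the genes of each group. *Sox2* had 176 ± 5.96, 152 ± 10.2, 185 ± 4.79 and 204 ± 6.11 TPM in the same order of groups, and *Nanog* 153 ± 1.17, 162 ± 10.1, 158 ± 7.96 and 176 ± 4.02. *Sox2* lay above *Nanog* in every library of 3 groups, but in Day 2 OHT the mean of *Nanog* was the higher and the libraries of the pair overlapped. *Lin28a* came next in each group, at 63.0 to 66.2 TPM in the Day 2 libraries and 82.6 to 89.0 TPM in those of Day 4. *Utf1*, at 52.7 to 63.1 TPM in group means, stayed above *Sall4*, at 38.4 to 60.3 TPM, with no overlap between libraries except in Day 4 OHT.

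**Figure D2:**
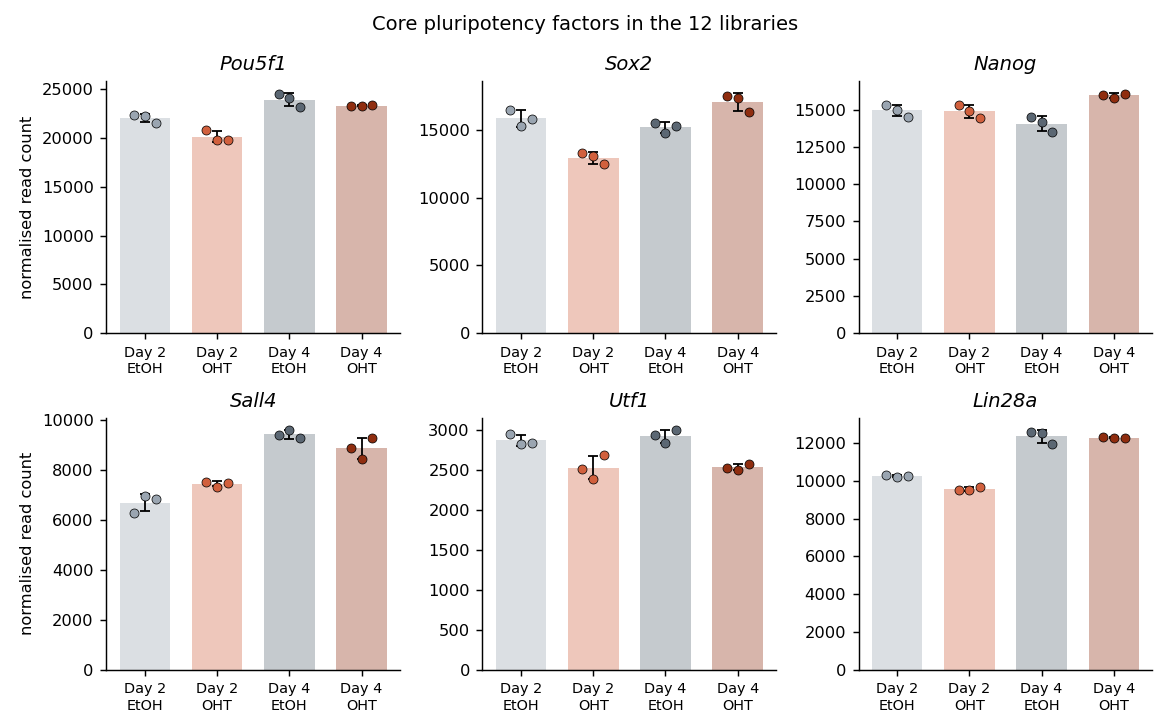
Normalised read counts (y axis, from 0) of the 6 members in the 12 libraries. Points are libraries, bars group means and error bars the SD (n = 3): *Sox2* is lowest in Day 2 OHT (12987), *Utf1* lower in OHT than in EtOH on both days, and *Sall4* and *Lin28a* higher at Day 4 than at Day 2.

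*Pou5f1* (ENSMUSG00000024406.16, chr17:35506018-35510772, plus strand, GRCm38) encodes OCT4, without which the inner cell mass loses pluripotency. Its normalised read counts at Day 2 were 22373, 22289 and 21576 in the EtOH libraries and 20816, 19835 and 19832 in the OHT libraries. At Day 4 they were 24517, 24137 and 23196 in EtOH and 23343, 23257 and 23401 in OHT. The OHT libraries thus lay below all EtOH libraries at Day 2 in normalised counts. At Day 4 the groups overlapped, the OHT libraries lying inside the range of EtOH. Among 11616 genes above the minimum mean, 27.0% had every OHT library below every EtOH library at Day 2, and 18.6% above. At Day 4 the shares were 29.5% and 33.1%, and they apply to the members below as well. In TPM the Day 2 groups of *Pou5f1* overlapped, at 385 to 389 in EtOH and 354 to 396 in OHT. At Day 2 the log2 fold change was -0.13 (SE 0.038, adjusted p = 0.00600): its level fell by 8.65%. At Day 4 it was -0.040 (SE 0.029, adjusted p = 0.311), with a 95% interval of -0.096 to 0.017. The difference between the 2 effects, 0.094 (SE 0.042, adjusted p = 0.0889), did not pass, so the fall was not shown to belong to Day 2 alone. Its Day 2 call was lost when Day 2 EtOH library 1 (adjusted p = 0.0570), EtOH library 2 (0.0642) or OHT library 2 (0.0544) was left out, and with scaling by total counts (-0.093, adjusted p = 0.0947) or removal of a length trend (-0.067, adjusted p = 0.226). The interaction passed without Day 2 OHT library 1 (0.12, adjusted p = 0.0280).

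*Sox2* (ENSMUSG00000074637.7, chr3:34650405-34652461, plus strand) encodes the HMG-box partner of OCT4, and its single exon lies within the long noncoding *Sox2ot* transcript on the same strand. It had 16539, 15285 and 15824 normalised counts in the Day 2 EtOH libraries and 13357, 13109 and 12494 in the OHT libraries. At Day 4 the counts were 15561, 14772 and 15354 in EtOH and 17565, 17387 and 16339 in OHT. The groups did not overlap on either day, but OHT was the lower at Day 2 and the higher at Day 4. Separation in these directions was seen in 27.0% of 11616 genes at Day 2 and in 33.1% at Day 4. The log2 fold change was -0.29 (SE 0.043, adjusted p = 9.32e-10) at Day 2 and 0.16 (SE 0.035, adjusted p = 1.77e-05) at Day 4. The difference of 0.46 between them (SE 0.056, 95% interval 0.35 to 0.57, adjusted p = 3.50e-14) was the largest of the 6 members, larger than that of 90.0% of tested genes. All 3 *Sox2* calls held in every alternative that was run. *Sox2ot* was listed with 41 to 117 counts per library, far under the 11471 or more of *Sox2*.

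*Nanog* (ENSMUSG00000012396.12, chr6:122707489-122714633, plus strand) encodes the homeobox factor that allows self-renewal at low cytokine input and is known to vary from cell to cell in serum. At Day 2 it had 15289, 15013 and 14544 normalised counts in EtOH and 15331, 14947 and 14462 in OHT. At Day 4 the EtOH libraries had 14521, 14158 and 13533 and the OHT libraries 16023, 15792 and 16087. The Day 2 groups covered nearly the same range, whereas at Day 4 all OHT libraries were above all EtOH libraries and above all 6 Day 2 libraries. The Day 2 log2 fold change was -0.0026 (SE 0.039, adjusted p = 0.979), with a 95% interval of -0.080 to 0.074 and a sign that turned under other scalings. At Day 4 it was 0.18 (SE 0.032, adjusted p = 1.87e-07), and the difference between the days, 0.19 (SE 0.047, adjusted p = 7.69e-04), passed as well. Both of these calls held in every alternative that was run.

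*Sall4* (ENSMUSG00000027547.17, chr2:168748332-168767943, minus strand) encodes a zinc finger factor that helps to maintain *Pou5f1* expression. Its normalised counts were 6284, 6939 and 6831 in Day 2 EtOH and 7516, 7325 and 7477 in Day 2 OHT. At Day 4 they were 9377, 9599 and 9266 in EtOH and 8883, 8437 and 9274 in OHT. OHT was above EtOH in all Day 2 libraries, but at Day 4 the third OHT library reached into the EtOH range of normalised counts. In TPM the Day 4 groups did not overlap, at 58.8 to 61.9 in EtOH and 48.6 to 57.6 in OHT. The log2 fold change was 0.15 (SE 0.047, adjusted p = 0.0104) at Day 2 and -0.089 (SE 0.037, adjusted p = 0.0499922) at Day 4, the latter at the threshold itself. The difference of -0.24 (SE 0.059, adjusted p = 5.01e-04) was opposite in sign to that of *Sox2* and was called in all 22 alternatives. The Day 2 call was lost without EtOH library 1 (0.11, adjusted p = 0.124) or OHT library 1 (0.15, adjusted p = 0.0705).

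Of the 17 alternatives for the Day 4 value of *Sall4*, 7 called it. Leaving out any 1 Day 4 library other than OHT library 3 ended the call, with adjusted p = 0.0526, 0.203 and 0.0639 without EtOH libraries 1, 2 and 3 and 0.141 and 0.348 without OHT libraries 1 and 2. Effective length is the transcript length, averaged over the isoforms assigned by the authors' quantification, after correction for the length of the sequenced fragments. *Sall4* was also the only member whose effective length moved between libraries by more than a few percent. It averaged 3658, 3678, 3604 and 3780 bases in Day 2 EtOH, Day 2 OHT, Day 4 EtOH and Day 4 OHT, and ran from 3487 to 3884 over the libraries. With these lengths as offsets the Day 4 value was -0.15 (adjusted p = 0.0115). Which isoforms moved was not measured, since the files hold values per gene.

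*Utf1* (ENSMUSG00000047751.9, chr7:139943789-139945112, plus strand) had the fewest counts of the 6 and the same direction on both days. It had 2954, 2832 and 2836 normalised counts in Day 2 EtOH and 2521, 2397 and 2686 in Day 2 OHT. At Day 4 there were 2938, 2844 and 3003 in EtOH and 2530, 2503 and 2582 in OHT. On each day all OHT libraries lay below all EtOH libraries, a separation seen in 27.0% of 11616 genes at Day 2 and in 29.5% at Day 4. The log2 fold change was -0.18 (SE 0.055, adjusted p = 0.00960) at Day 2 and -0.21 (SE 0.045, adjusted p = 2.62e-05) at Day 4. The difference between them was -0.024 (SE 0.065, adjusted p = 0.851), with a 95% interval of -0.15 to 0.10. The Day 4 call held throughout, and that of Day 2 was lost without EtOH library 1 (adjusted p = 0.100), OHT library 1 (0.0549) or OHT library 2 (0.112), with total count scaling (-0.14, adjusted p = 0.0574) and with the length trend removed (-0.11, adjusted p = 0.167).

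*Lin28a* (ENSMUSG00000050966.9, chr4:134003330-134018841, minus strand) acts after transcription rather than at enhancers. Its normalised counts were 10320, 10183 and 10247 in Day 2 EtOH and 9524, 9506 and 9675 in Day 2 OHT. At Day 4 they were 12569, 12530 and 11939 in EtOH and 12301, 12261 and 12249 in OHT. In normalised counts the Day 2 groups were separate, with a narrow spread in each, and at Day 4 the OHT libraries lay inside the EtOH range. In TPM the Day 2 groups overlapped, at 64.5 to 66.2 in EtOH and 63.0 to 66.0 in OHT. The Day 2 log2 fold change of -0.099 (SE 0.037, adjusted p = 0.0450) was called in 5 of 17 alternatives only, and without Day 2 EtOH libraries 1, 2 and 3 its adjusted p was 0.140, 0.113 and 0.0791 and without OHT libraries 1 and 2 0.121 and 0.143. At Day 4 it was -0.011 (SE 0.031, adjusted p = 0.840), with a 95% interval of -0.072 to 0.050 and the opposite sign without Day 4 EtOH library 1 (0.0026). The difference between the days, 0.091 (SE 0.038, adjusted p = 0.0669), did not pass.

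Of the 6 differences between the OHT effects of Day 4 and Day 2, 2 were called higher (*Sox2* and *Nanog*) and 1 lower (*Sall4*), where 18.9% of 11612 tested genes were called higher, 13.6% lower and 32.5% in either direction. The forest plot of log2 fold changes sets these effects beside the changes over time.

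**Figure D3:**
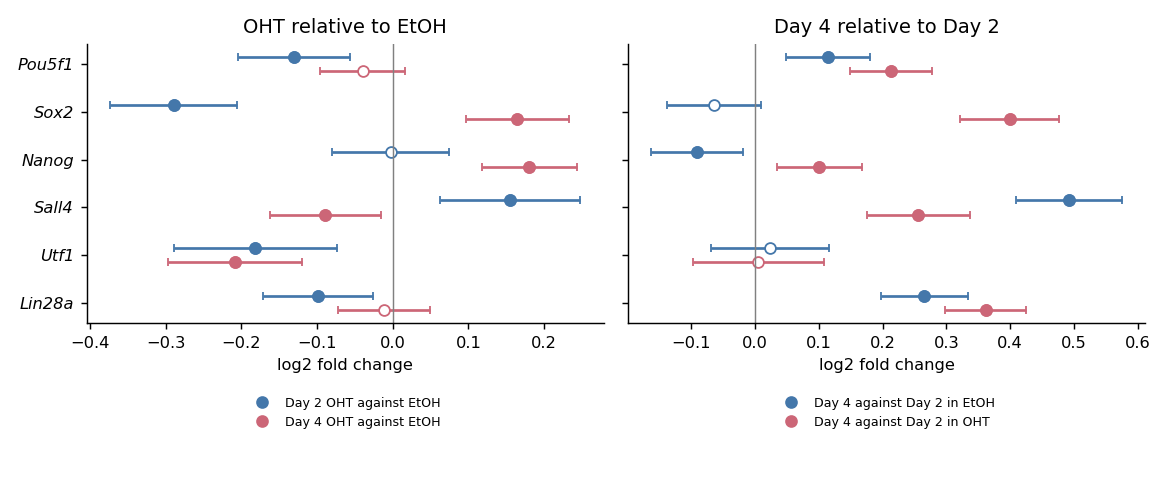
Log2 fold changes (x axis) with 95% intervals for OHT over EtOH (left) and Day 4 over Day 2 (right), one line of points per member; filled points were called, open points were not. On the left *Sox2* crosses from -0.29 at Day 2 to 0.16 at Day 4 and *Sall4* goes the other way, and on the right *Sall4* (0.49) and *Lin28a* (0.27) lead in EtOH and *Sox2* (0.40) and *Lin28a* (0.36) in OHT.

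Between the days, 3 members rose and 1 fell in the vehicle libraries, against 20.7% of 11570 tested genes called higher, 20.6% lower and 41.3% in either direction. In EtOH *Sall4* rose by 40.6% (log2 0.49, SE 0.042, adjusted p = 4.98e-29), more than 91.4% of tested genes changed, and *Lin28a* by 20.2% (log2 0.27, SE 0.035, adjusted p = 4.25e-13). *Pou5f1* rose by 8.25% (adjusted p = 0.00299), and all 3 calls held in every alternative. *Nanog* fell by 6.07% (adjusted p = 0.0435), a call that 8 of 17 alternatives kept and that ended without EtOH library 1 or 2 of Day 2 (adjusted p = 0.213 and 0.156) or EtOH library 2 or 3 of Day 4 (0.106 and 0.248). In TPM the EtOH libraries of the days overlapped for *Nanog*, and the means went the other way, from 153 at Day 2 to 158 at Day 4. For *Sox2* the log2 value was -0.063 (adjusted p = 0.198) and for *Utf1* 0.024 (adjusted p = 0.761).

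After OHT, 5 members rose from Day 2 to Day 4 and none fell in the DESeq2 fit, where 30.9% of 11633 tested genes were called higher, 23.1% lower and 54.0% in either direction; the sixth, *Utf1*, had an unadjusted p of 0.916. *Sox2* rose by 31.9% (log2 0.40, SE 0.040, adjusted p = 2.24e-22), *Lin28a* by 28.5% (adjusted p = 5.85e-27), *Sall4* by 19.4% (adjusted p = 4.78e-09) and *Pou5f1* by 16.0% (adjusted p = 7.60e-10). *Nanog* rose by 7.26% (adjusted p = 0.0102), a call that was lost without Day 4 OHT library 1 (adjusted p = 0.0502), with total count scaling and with the length trend removed. *Utf1* was at 2535 ± 145 normalised counts at Day 2 and 2538 ± 40.0 at Day 4 (SD, n = 3), a log2 difference of 0.0055 with a 95% interval of -0.098 to 0.11 and a sign that turned under other scalings. The comparisons over time share their libraries with those of OHT against EtOH and are not independent of them.

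Ordered by mean normalised count, the lowest group was Day 2 OHT for *Pou5f1*, *Sox2*, *Utf1* and *Lin28a*, Day 2 EtOH for *Sall4* and Day 4 EtOH for *Nanog*. Neighbouring groups whose libraries overlapped were the 2 Day 4 groups for *Pou5f1*, *Sall4* and *Lin28a*, and the groups of each treatment across the days for *Utf1*. For *Sox2*, Day 2 OHT stood below the other 3 groups, whose neighbours overlapped in turn. For *Nanog*, Day 4 OHT stood above the other 3.

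Added up, the 6 transcripts made 876, 871 and 879 TPM in Day 2 EtOH and 893, 853 and 807 TPM in Day 2 OHT. At Day 4 the sums were 1041, 1025 and 975 TPM in EtOH and 1017, 993 and 1022 TPM in OHT. OHT and EtOH overlapped on both days, with ratios of 0.972 and 0.997 (two-sided exact permutation p = 0.4 and 0.8), while Day 4 was above Day 2 in all libraries, 1.16-fold in EtOH and 1.19-fold in OHT. With 3 libraries against 3, an exact permutation p cannot go below 0.1, which is the value of both comparisons over time. When the expected counts were scaled to library totals and summed, without division by length, the OHT libraries were separate from EtOH in both directions, with ratios of 0.955 at Day 2 and 1.02 at Day 4 (exact permutation p = 0.1 for each). On the same count scale Day 4 was again above Day 2 in all libraries, but by 1.09-fold in EtOH and 1.16-fold in OHT. The TPM and count scales therefore differ in whether the sum moved with OHT, and in the size of its rise between the days.

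**Figure D4:**
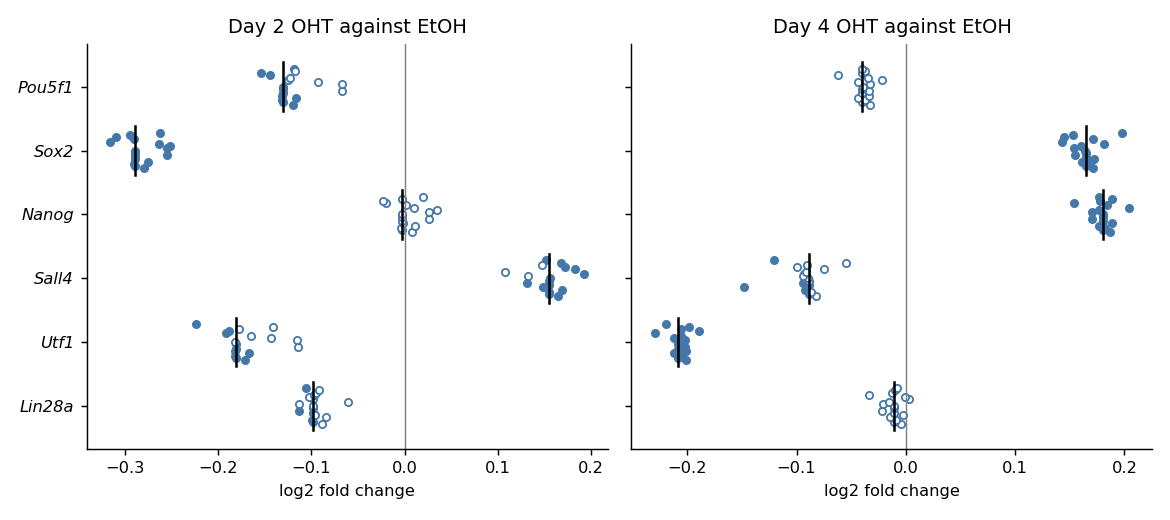
Log2 fold changes of OHT over EtOH (x axis) for each member under 17 alternative settings (points, filled where called) and as reported (black bars), at Day 2 (left) and Day 4 (right). *Sox2* on both days, and *Nanog* and *Utf1* at Day 4, have filled points only, whereas *Lin28a* at Day 2 and *Sall4* at Day 4 have mostly open ones.

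Genes that work with these factors were taken from 5 lists: other factors of the naive state, targets and stem cell-associated genes, LIN28 partners and the let-7 pathway, NuRD subunits, and relatives of the SALL, POU and SOX families. Of 66 genes, 62 were tested, and 9 fell and 14 rose at Day 2 (37.1%, median log2 fold change 0.016 beside 20.1% and -0.028 over all genes). At Day 4, 21 fell and 17 rose (61.3%, median -0.039, beside 45.1% and 0.0061 over all genes). Scaling by total counts changed the Day 2 split to 6 lower and 19 higher. The lists were chosen with results of these data known, so the shares are given as descriptions.

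Among 12 naive state factors, 2 fell and 4 rose at Day 2, and 3 fell and 6 rose at Day 4 (median 0.17), which is 50.0% and 75.0% called beside 20.1% and 45.1% of all tested genes. *Nr0b1*, an orphan nuclear receptor that interacts with OCT4, went from 1883 ± 104 to 1653 ± 72.8 normalised counts at Day 2 (SD, n = 3; log2 -0.19, adjusted p = 0.0207) and from 2505 ± 38.5 to 3905 ± 64.1 at Day 4 (log2 0.64, adjusted p = 4.49e-50). Like *Sox2*, it was lower after OHT at Day 2 and higher at Day 4. *Esrrb*, another orphan nuclear receptor, rose on both days, by 0.20 (adjusted p = 9.65e-06) and 0.40 (adjusted p = 2.77e-34) on the log2 scale. *Klf4*, a Kruppel-like factor used in reprogramming, rose at Day 4 by 0.31 (adjusted p = 4.00e-15), with -0.078 (adjusted p = 0.270) at Day 2.

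Of 19 targets and stem cell-associated genes, 4 fell and 2 rose at Day 2, and 6 fell and 6 rose at Day 4 (median -0.053), or 31.6% and 63.2% called beside 20.1% and 45.1% of all tested genes. *Lefty2*, an inhibitor of Nodal signalling, was at 7174 ± 169 counts in EtOH and 9672 ± 248 in OHT at Day 4 (log2 0.43, adjusted p = 6.77e-34), after -0.0023 (adjusted p = 0.979) at Day 2. *Mycn*, a MYC family factor, fell at Day 2 (log2 -0.32, adjusted p = 7.18e-10) and at Day 4 (log2 -0.46, adjusted p = 1.94e-24). *Eras*, a Ras-like gene of embryonic stem cells, fell at Day 4 (log2 -0.57, adjusted p = 7.90e-17).

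Of 12 genes around LIN28 and let-7, 5 rose and 7 were not called at Day 2, and 5 fell and 4 rose at Day 4, or 41.7% and 75.0% called beside 20.1% and 45.1% of all tested genes. *Hmga2*, the gene of a chromatin protein, went from 189 ± 7.02 to 354 ± 20.6 counts at Day 4 (log2 0.90, adjusted p = 7.78e-12). *Igf2bp3*, the gene of an RNA-binding protein, rose on both days (log2 0.18 and 0.39). *Drosha*, the nuclear nuclease of microRNA processing, rose at Day 2 (log2 0.24, adjusted p = 2.49e-04) and fell at Day 4 (log2 -0.21, adjusted p = 1.09e-06). Over the same libraries *Lin28a* itself moved by less than 0.1 on the log2 scale.

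Of 11 NuRD subunits, 2 fell and 1 rose at Day 2, and 5 fell and 1 rose at Day 4, or 27.3% and 54.5% called, near the 20.1% and 45.1% of all tested genes. *Hdac2*, a histone deacetylase of the complex, had the largest change of the 62 tested list genes, from 5842 ± 79.1 to 2326 ± 112 counts at Day 2 (log2 -1.33, adjusted p = 4.64e-157) and from 6223 ± 431 to 2255 ± 32.3 at Day 4 (log2 -1.47, adjusted p = 1.24e-195). The study's list of 633 genes associated with PRDM10 binding sites held *Hdac2*, as 1 of 2 among the 66 list genes, and 0 of the 6 members. The part of binding in these changes was not tested. *Mbd3*, which holds the complex together, fell at Day 4 (log2 -0.31, adjusted p = 1.82e-07) and *Mta1*, another subunit, rose (log2 0.41, adjusted p = 2.45e-08). Of 8 tested relatives, 1 fell and 2 rose at Day 2 and 2 fell at Day 4, beside the same shares of all genes. Those were *Sall1* and *Pou2f1*, the gene of the widely expressed factor OCT1. Both had risen at Day 2 (log2 0.26 and 0.23) before falling at Day 4 (log2 -0.22 and -0.56). *Sall4* had the same directions, but its Day 4 call stood at the threshold. The Day 4 value of *Pou2f1* had an SE of 0.16 (adjusted p = 0.00158), with 3001 ± 559 counts in EtOH and 2034 ± 56.7 in OHT.

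**Figure D5:**
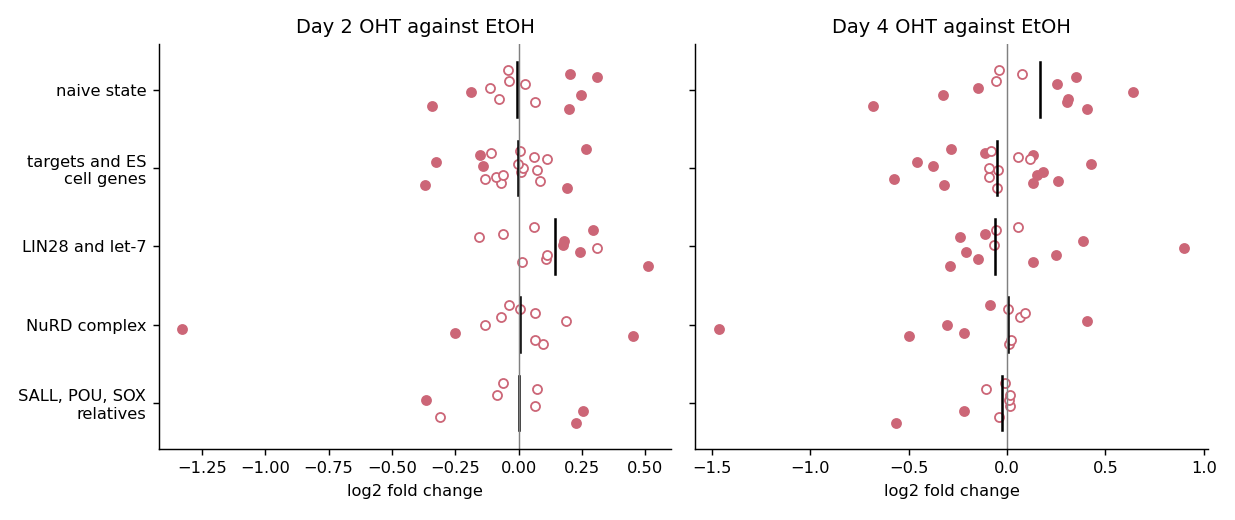
Log2 fold changes of OHT over EtOH (x axis) for the 62 tested genes of the 5 lists at Day 2 (left) and Day 4 (right); points are genes, filled where called, and bars list medians. The point far to the left in the NuRD list is *Hdac2* (-1.33 and -1.47), and the naive state median stands at 0.17 at Day 4.

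Of the formative and primed state markers, 4 were tested at Day 4, and 1, *Dnmt3b*, fell while the others were not called (list median -0.090 beside 0.0061 over all genes). The sum over all 6 was 40.7 to 41.8 TPM in Day 4 EtOH and 30.1 to 32.9 TPM in Day 4 OHT, and most of it was *Dnmt3b*, a de novo DNA methyltransferase, at a mean of 33.7 and 23.8 TPM. At Day 2 the sums overlapped, at 27.6 to 29.0 and 27.7 to 30.1 TPM. No fibroblast marker was above the minimum mean count at Day 4. They summed to 2.54 to 3.27 TPM in EtOH and 1.16 to 1.82 TPM in OHT, of which *Thy1* alone made a mean of 2.18 and 0.777 TPM, with *Dcn*, *Lum* and *Twist2* at the floor in both. The part of either marker list in the Day 4 values of the members was not tested.

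Across the 12 libraries the members did not share 1 pattern. By the root mean square difference of log2 normalised counts centred on each gene's mean, the closest pair was *Pou5f1* and *Lin28a* (0.080) and the farthest *Sall4* and *Utf1* (0.228). Of 11610 other genes, those most like each member were *Snw1* and *Nup35* for *Pou5f1* (0.023 and 0.025), *Ndufb4c* and *Mrpl43* for *Sox2* (0.042 and 0.049), and *Eif5* and *Fau* for *Nanog* (0.024 and 0.025). They were *Nsf* and *Lrrc8d* for *Sall4* (0.050 and 0.052), *Bicd2* and *Aggf1* for *Utf1* (0.037 and 0.039), and *Acad11* and *Rrp1b* for *Lin28a* (0.028 for both). The median over all these genes was 0.155 to 0.237, and only 3 of the 12 names stayed when the 4 group means were used in place of the libraries.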

How the data were processed

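The authors sequenced TruSeq Stranded Total RNA libraries, aligned reads to GRCm38.p6 with STAR 2.6.0c and quantified genes with RSEM, per the labels and the methods. The deposited files hold expected counts, TPM and effective lengths per gene; the authors' own tables of DESeq2 1.22.2 fold changes and p-values were not used. Expected counts were rounded and fitted in DESeq2 1.42.0 (R 4.3.3), with median-of-ratios size factors, independent filtering at 0.05 and the libraries of each comparison only; the difference between days was an interaction over all 12. Wald intervals are 95%. Printed normalised counts use size factors over the 12 libraries. Alternatives included edgeR 4.0.16 quasi-likelihood, other scalings and filters, a length trend (loess span 0.3) and leaving out each library. The fits were tested on simulated data, with changes larger than those of the members between OHT and EtOH. Effects as small as those of the members were not simulated. Named genes were the members, *Prdm10*, the 3 genes of smallest p at Day 4 per list among those called, and the 2 genes most like each member. The members and lists were chosen with earlier results of these data known. No pair of libraries agreed within sampling noise. Gene positions are from GENCODE vM21, and promoters from RefSeq.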

Additional observations from a re-analysis of the deposited data

Results flagged for a closer look

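Some results were flagged because the effect of OHT differed between Day 2 and Day 4 by the interaction test (DESeq2, adjusted over all genes). The same test passed for 32.5% of 11612 tested genes and for 50% of the 62 tested list genes. Among the members the log2 differences, Day 4 minus Day 2, were 0.46 for *Sox2*, 0.19 for *Nanog* and -0.24 for *Sall4*.

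Among the named genes of the lists the differences were higher at Day 4 for *Nr0b1* (0.83), *Esrrb* (0.21), *Klf4* (0.39), *Lefty2* (0.43), *Igf2bp3* (0.21), *Hmga2* (0.59) and *Mta1* (0.22). They were lower at Day 4 for *Eras* (-0.44), *Drosha* (-0.45), *Sall1* (-0.47) and *Pou2f1* (-0.79). The listed genes were named for a small p at Day 4, a part of the same contrast, so these values are a description.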

How the results depend on the processing

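Of 540 recomputed fold changes of members, 471 kept their direction and side of the threshold, 51 lost the call, 2 gained it and 16, each of a value that was not called, changed sign. The number of members called at Day 2 was 5 as reported, 2 with total count scaling, 3 with the length trend removed, 3 with the replicate number as a block and 1 with the block and the length trend removed, and 1 to 5 when a library was left out; the cause was not tested. In the other comparisons the counts of members and of listed genes stayed within 1.5 times. Independent filtering at its default of 0.1, chosen after seeing the data, changed no call of a member. Whether the replicate numbers pair the libraries is unknown. Same-numbered libraries of OHT and EtOH correlated at -0.035 to 0.084 at Day 2 and -0.23 to 0.12 at Day 4 (deviations from group means over 11616 genes). With 3 libraries per group such correlations cannot exclude pairing, and the block is given as a check only. With it 2 members fell and 1 rose at Day 2, where the calls of *Utf1* (adjusted p = 0.0594) and *Lin28a* (0.168) were lost, and 1 fell and 2 rose at Day 4, where that of *Sall4* (0.120) was lost; with the length trend removed as well, *Sox2* alone was called at Day 2.

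*Nanog* at Day 2 was 0.011 with edgeR, 0.0075 with TMM factors, 0.035 with total counts, 0.026 with the length trend removed and 0.026 with block and trend, and ran from -0.023 to 0.019 without a library. *Utf1* from Day 2 to Day 4 in OHT was -0.0029 with edgeR, -0.022 with total counts, -0.052 with the trend removed and -0.052 with block and trend, and -0.033 to 0.047 without a library. *Utf1* in the interaction ran from -0.062 to 0.020 without a library, and *Lin28a* at Day 4 from -0.034 to 0.0026. The ratio of summed TPM at Day 4 was 1.02 as counts scaled to library totals and 1.03 without *Pou5f1*, and 0.979 to 1.01 without a library. Fits with a library left out compare 2 libraries with 3.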
